A study of Macaca fascicularis with 3 samples.

Results

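The miR-146 and miR-155 miRNAs, known as regulators of inflammatory signalling, were followed in kidney cortex from 3 naïve cynomolgus monkeys (Macaca fascicularis). The members are all names with the stem miR-146a, miR-146b or miR-155 on any arm, and 4 of the 432 listed mature miRNAs met this rule: miR-146a-5p, miR-146b-5p, miR-146b-3p and miR-155. The last carries no arm suffix, and the authors' deposited table pairs it with human miR-155-5p. No name for the other arm of the miR-146a or the miR-155 hairpin met this rule.

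The cortex is the outer layer of the kidney, which contains the glomeruli and much of the tubule system. All 3 libraries form a single group of naïve animals aged 2 to 3 years, with no treatment, genotype or second tissue, so levels are compared between miRNAs and between animals only. Each animal gave 1 small RNA library, and spread between animals therefore includes spread between library preparations. Counts assigned to listed miRNAs totalled 4305977 in animal 1, 4707892 in animal 2 and 3957188 in animal 3. Markers of the labelled tissue were high. The tubule-associated miRNAs miR-192, miR-194 and miR-204 summed to between 53058 and 61964 counts per 1000000 listed counts (CPM). Most of that sum was miR-204-5p, with a mean of 48124 CPM, against 4862 CPM for miR-194-5p and 4292 CPM for miR-192-5p. The opposite arm miR-204-3p was low, with 101, 112 and 4.80 CPM in animals 1, 2 and 3. The endothelial miR-126 lay between 39923 and 49842 CPM. Animal 3 was the lowest of the animals for 41.9% and the highest for 39.6% of the 391 miRNAs averaging 10 or more counts, on CPM scaled by the trimmed mean of M values (TMM). Its library stood apart in large decreases: 26 of these miRNAs lay over 4-fold below both other animals there, whereas animal 1 had 3 such miRNAs and animal 2 had 0.

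A miRNA guides the silencing complex to messenger RNAs that pair with its seed, the bases near its 5′ end. miR-146a is transcribed in response to NF-κB downstream of Toll-like and interleukin-1 receptors and represses the adaptors TRAF6 and IRAK1 of the same route, a negative feedback. miR-146b comes from a separate gene, and its 5p strand has the same seed as miR-146a-5p and differs from it only near the 3′ end. miR-155 is processed from the transcript known as BIC or MIR155HG, is induced in activated macrophages and lymphocytes, and represses SOCS1 and INPP5D, which restrain cytokine and phosphoinositide signalling.

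In untreated cortex, the members ranked 118 (miR-146a-5p), 122 (miR-146b-5p), 198 (miR-155) and 334 (miR-146b-3p) of the 432 names by mean CPM. Together they took 0.0861% of listed counts in animal 1 (Wilson 95% interval from 0.0834 to 0.0889), 0.0851% in animal 2 (from 0.0825 to 0.0878) and 0.0709% in animal 3 (from 0.0683 to 0.0736), a mean of 0.0807% ± 0.0085 (SD, n = 3). Animal 3 lay below the other animals by more than counting error. After TMM scaling the distance narrowed, to 852, 809 and 754 CPM in animals 1, 2 and 3. The Wilson intervals cover counting error only and not spread between animals or library preparations. They treat each read as independent, since no molecular identifiers were used here.

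miR-146a-5p, the feedback regulator named above, had 2416, 1618 and 916 counts in animals 1, 2 and 3. Its levels were 561 CPM in animal 1, 344 CPM in animal 2 and 231 CPM in animal 3, with a mean of 379 CPM ± 168 (SD, n = 3). It stood at rank 100, 128 and 131 of the 432 names in the 3 libraries. Animal 1 was the highest, animal 3 the lowest, and the 2.25-fold distance between them on TMM-scaled CPM (exact 95% interval 2.09 to 2.44) exceeded counting error.

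miR-146b-5p, which shares its seed, had 953, 2027 and 1719 counts in animals 1, 2 and 3. This gave 221 CPM in animal 1, 431 CPM in animal 2 and 434 CPM in animal 3, with a mean of 362 CPM ± 122 (SD, n = 3). Its ranks were 138, 115 and 109. Animal 1, the highest for miR-146a-5p, was the lowest here, and animals 2 and 3 lay close together. Animal 3 exceeded animal 1 by 2.11-fold on TMM-scaled CPM (exact 95% interval 1.95 to 2.29). Between animals 2 and 3 the TMM-scaled ratio was 0.886 (0.831 to 0.945), and on the authors' deposited signal, unadjusted for library size, the order of these 2 animals turned, with 1927.0 in animal 2 and 1827.9 in animal 3.

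**Figure D1:**
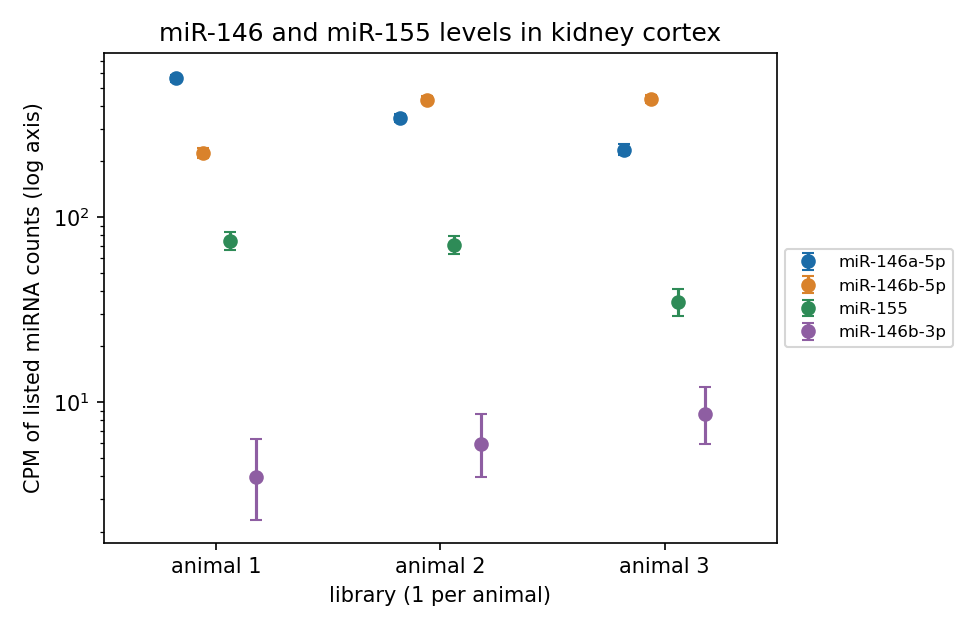
Levels of the 4 members in CPM (log axis) in each of the 3 libraries, with bars giving exact Poisson 95% intervals for counting error. miR-146a-5p lies at 561 CPM in animal 1 and at 231 CPM in animal 3, miR-146b-5p stands at 221 CPM in animal 1 and at 431 and 434 CPM in the others, and miR-155 is lowest in animal 3.

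miR-155 had 321, 334 and 137 counts in animals 1, 2 and 3. Its levels were 74.5 CPM (exact Poisson 95% interval 66.6 to 83.2) in animal 1, 70.9 CPM (63.5 to 79.0) in animal 2 and 34.6 CPM (29.1 to 40.9) in animal 3, with a mean of 60.0 CPM ± 22.1 (SD, n = 3). Animals 1 and 2 overlapped within counting error, and animal 3 lay below both. In that library 65 of the 391 tested miRNAs (16.6%), miR-155 among them, lay at least 1.83-fold below both other animals, the distance of miR-155. Animal 1 had 14 and animal 2 had 8 miRNAs that far below both others. The part of the library in the low value of miR-155 was not tested. The TMM-scaled ratio of animal 1 over animal 3 was 2.00 (exact 95% interval 1.64 to 2.46), that of animal 2 over animal 3 was 1.83 (1.50 to 2.25), and that of animal 1 over animal 2 was 1.09 (0.935 to 1.28). miR-155 stood at rank 192, 194 and 213 of the 432 names.

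miR-146b-3p, the opposite arm of the miR-146b hairpin, had 17, 28 and 34 counts, or 3.95, 5.95 and 8.59 CPM in animals 1, 2 and 3. Its mean was 6.16 CPM ± 2.33 (SD, n = 3), and its exact Poisson intervals were wide, from 2.30 to 6.32 CPM in animal 1 and from 5.95 to 12.0 CPM in animal 3. Like the 5p arm it was lowest in animal 1 and highest in animal 3 by CPM. Animal 2 could not be told from either by counting error. The TMM-scaled ratio of animal 1 over animal 2 was 0.691 (exact 95% interval 0.355 to 1.31), and that of animal 2 over animal 3 was 0.619 (0.361 to 1.05). The 5p arm made 98.2% of the counts of both arms in animal 1 (Wilson 95% interval from 97.2 to 98.9), 98.6% in animal 2 (from 98.0 to 99.1) and 98.1% in animal 3 (from 97.3 to 98.6). The overlapping intervals leave no difference in arm use that could be detected at this depth. Among 108 hairpins listed with 5p and 3p arms that together averaged 100 or more counts, the dominant arm made a median of 96.4% of the counts, and 43 hairpins, miR-146b included, were at least as one-sided as miR-146b.

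The order of the members within animals was then examined. miR-146a-5p and miR-146b-5p had close means, but their order depended on the animal: miR-146a-5p had 2.54 times the counts of miR-146b-5p in animal 1, 0.798 times in animal 2 and 0.533 times in animal 3. The mean log2 difference was 0.04 ± 1.17 (SD), with miR-146a-5p higher in 1 of 3 animals, and the exact permutation test, two-sided and by sign flips, gave p = 1. miR-146b-5p exceeded miR-155 in 3 of 3 animals, with a mean log2 lead of 2.60 ± 1.04 (exact permutation p = 0.25, adjusted over 3 pairs 0.375). The size of that lead was 2.97-fold in animal 1, 6.07-fold in animal 2 and 12.5-fold in animal 3. miR-155 exceeded miR-146b-3p in 3 of 3 animals by 3.22 ± 1.12 (exact permutation p = 0.25, adjusted 0.375), and 0.25 is the smallest p that 3 animals allow.

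The balance between both miR-146 guide strands was also compared within libraries, where scaling plays no part. A share shows only that the ratio changed, so the opposite directions of both strands rest on the CPM values above. miR-146a-5p made 71.7% of the counts of miR-146a-5p and miR-146b-5p in animal 1 (Wilson 95% interval from 70.2 to 73.2), 44.4% in animal 2 (from 42.8 to 46.0) and 34.8% in animal 3 (from 33.0 to 36.6). None of the 3 intervals overlapped another. The sum of both strands varied less than either strand, with 782, 774 and 666 CPM in animals 1, 2 and 3, a mean of 741 CPM ± 65.0 (SD, n = 3). Its coefficient of variation was 8.78%, against 44.2% for miR-146a-5p and 33.7% for miR-146b-5p. For strands with close means that shift in opposite directions, a steadier sum follows largely by arithmetic, so it is not separate evidence. On TMM-scaled CPM the sum spanned 1.09-fold between animals (exact 95% interval 1.04 to 1.15), 1.17-fold by library totals and 1.24-fold on the authors' deposited signal. The levels of each strand remain uncertain because the sources used here do not say how reads that fit both names were counted, and the part of such reads in the opposite pattern was not tested.

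**Figure D2:**
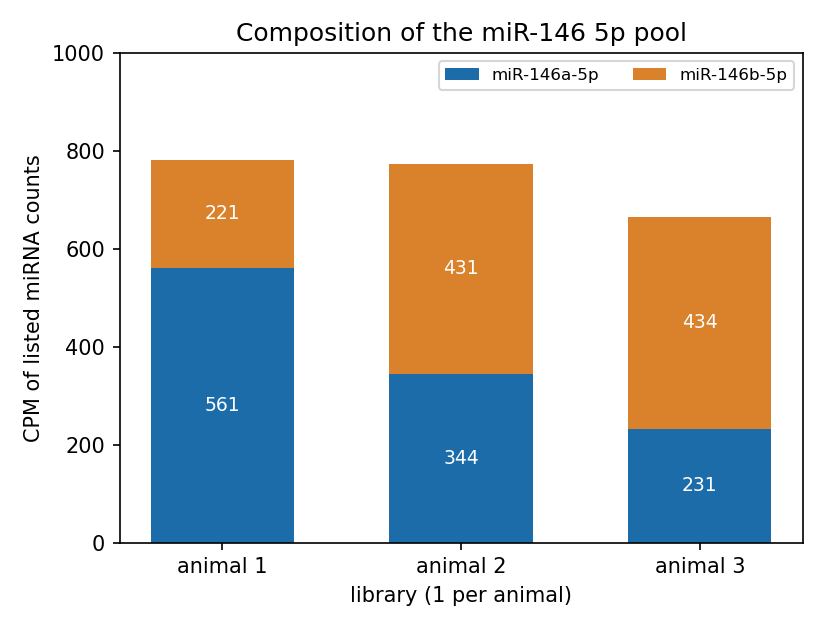
CPM of miR-146a-5p and miR-146b-5p stacked for each of the 3 libraries, from 0 upward, with the value of each strand printed inside its bar. The stacks reach 782, 774 and 666 CPM, while the miR-146a-5p part is the larger in animal 1 and the smaller in animals 2 and 3.

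For context, the same within-library ratio was taken for pairs of names that share number and arm and differ in letter or copy number. Each name needed a mean count of at least 100, and pairs with identical counts in all 3 libraries were left out. This gave 77 pairs, many sharing a name, and the largest ratio exceeded the smallest by a median of 1.49-fold over the 3 animals. For miR-146a-5p with miR-146b-5p the change was 4.76-fold, which was the third largest, after miR-30a-3p with miR-30b-3p at 8.32-fold and miR-106a-3p with miR-106b-3p at 4.93-fold. The member with more counts differed between animals in 10 of the 77 pairs, the miR-146 pair included. The place of the miR-146 pair depended on the minimum, with 12 of 125 pairs changing at least as much when a mean count of 10 sufficed and 1 of 49, the miR-146 pair alone, when 1000 was required.

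**Figure D3:**
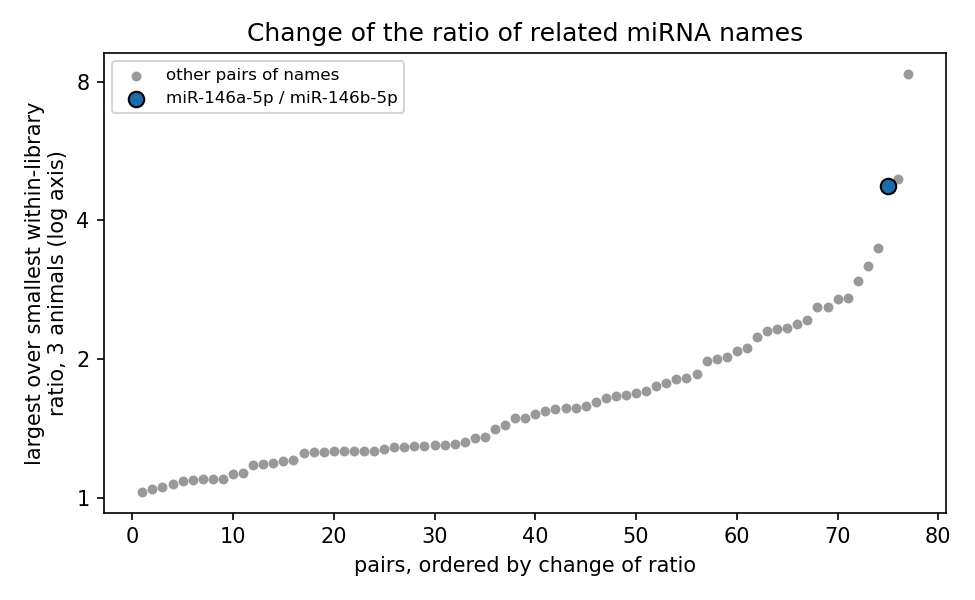
Change of the within-library ratio across the 3 animals (log axis) for 77 pairs of names that share number and arm, ordered by that change, with 1 point per pair. The miR-146a-5p and miR-146b-5p pair lies at 4.76-fold, near the upper end, and the median pair at 1.49-fold.

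All 4 members had a mean count of at least 10 and entered a chi-square test of homogeneity of their counts against TMM-scaled library sizes, adjusted by Benjamini-Hochberg across the 391 miRNAs tested. The adjusted p-values were 2.22e-122 for miR-146a-5p, 9.41e-83 for miR-146b-5p, 1.86e-11 for miR-155 and 0.0129 for miR-146b-3p. The test called 4 of 4 members and 80.6% of all miRNAs tested, so the calls do not set the members apart. It compares 3 libraries against counting error and not conditions. Without animal 3, miR-155 was no longer called (adjusted p 0.347) and neither was miR-146b-3p (0.317), while the share of all miRNAs called decreased to 59.3% of 400. miR-146b-3p was also lost without animal 1 (0.0822), where 65.2% of 391 were called. By contrast, miR-146a-5p and miR-146b-5p passed with any single animal left out.

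By size, the highest animal exceeded the lowest on TMM-scaled CPM by 2.25-fold for miR-146a-5p, 2.11-fold for miR-146b-5p, 2.00-fold for miR-155 and 2.34-fold for miR-146b-3p. More than 2-fold was seen for 39.9% of the tested miRNAs, whose median span was 1.71-fold, so the members lay in the upper part of the range but not at its end. The span of miR-155 sat at the limit, with 1.96-fold under DESeq2 size factors and 2.15-fold by library totals, and that of miR-146b-5p was 1.96-fold by library totals. Between animals 1 and 2, 9.97% of the tested miRNAs differed at least as much as miR-146b-5p, 17.9% as much as miR-146a-5p, 40.2% as much as miR-146b-3p and 79.3% as much as miR-155. Between animals 1 and 3 these shares were 24.8% for miR-146b-5p, 21.7% for miR-146a-5p, 25.8% for miR-146b-3p and 28.9% for miR-155. Between animals 2 and 3 they were 78.5%, 53.2%, 38.6% and 26.3% in the same order.

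**Figure D4:**
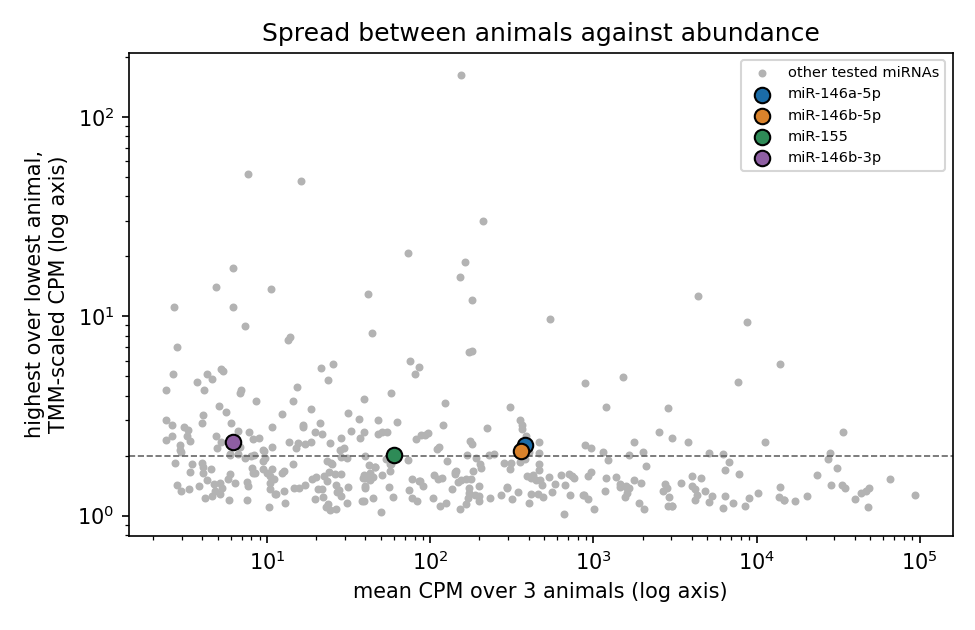
Highest over lowest animal on TMM-scaled CPM (log axis) against mean CPM (log axis) for the tested miRNAs, 1 point each, without the 3 tested miRNAs that had 0 counts in a library. The dashed line marks 2-fold, and the 4 members lie between 2.00-fold and 2.34-fold.

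Leucocyte miRNAs were set beside the members, because miR-146a and miR-155 are known from leucocytes as well as from endothelium and epithelium. In tissue RNA, fewer cells of a type and less of a miRNA per cell cannot be told apart. The list of miR-142, miR-150 and miR-223, typical of blood-derived cells, had 4 names, which summed to 1603, 1642 and 1614 TMM-scaled CPM in animals 1, 2 and 3, a span of 1.02-fold. Its names did not move together. miR-142-3p, the most abundant, was lowest in animal 3 with 904, 927 and 735 TMM-scaled CPM in animals 1, 2 and 3, and miR-142-5p was also lowest there with 51.5, 47.0 and 33.1. miR-150-5p, typical of mature lymphocytes, was highest in animal 3 with 509, 435 and 676 TMM-scaled CPM. miR-223, typical of myeloid cells, was highest in animal 2 with 139, 233 and 170.

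Relative to the summed leucocyte list in the same library, miR-155 had 4.60, 4.11 and 2.28 counts per 100 leucocyte counts in animals 1, 2 and 3. That sum spanned only 1.02-fold on TMM-scaled CPM, so this scale nearly repeats the TMM-scaled values and is not separate evidence. Ratios to single names of the list would differ, since miR-142-3p and miR-142-5p were, like miR-155, lowest in animal 3. miR-146a-5p had 34.6, 19.9 and 15.3 counts per 100, and miR-146b-5p had 13.7, 24.9 and 28.6. The sum of both miR-146 guide strands was nearly level, with 48.3, 44.8 and 43.9 counts per 100 leucocyte counts. The erythroid list of miR-144, miR-451 and miR-486, marks of red cells, had 4 names, which summed to 4971, 4158 and 6130 TMM-scaled CPM. Within it miR-144 stood at 626, 403 and 346 TMM-scaled CPM, the order of animals seen for miR-146a-5p, while miR-451 stood at 4322, 3708 and 5727 and miR-486-5p at 20.4, 40.6 and 50.2. The part of blood in the tissue was not tested.

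Other miRNAs known to respond to, or act on, Toll-like receptor and NF-κB signalling were taken as a list of 8 stems, miR-9, miR-21, miR-125a, miR-125b, miR-132, miR-147, miR-187 and miR-212, all of which were present, with 15 names. Of the 14 names with a mean count of at least 10, the chi-square test called 10, against 80.6% of all tested miRNAs. More than 2-fold was spanned by 4 of the 14 names, against 39.9% of all tested miRNAs. The list median was 1.81-fold, against 1.71-fold. The highest animal was animal 1 for 3 names, animal 2 for 4 and animal 3 for 7. The list therefore showed no common order of animals.

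miR-132-3p, a CREB-responsive miRNA also induced in monocytes, had 435, 949 and 881 counts, or 101, 202 and 223 CPM in animals 1, 2 and 3, low in animal 1 as miR-146b-5p was (adjusted chi-square p 3.04e-50). miR-21-5p, an abundant miRNA that rises in injured tubules, had the smallest span of the tested names, 1.19-fold on TMM-scaled CPM, with 14796, 14121 and 15051 CPM. Its opposite arm miR-21-3p had 99.9, 50.1 and 22.5 CPM, the order of animals seen for miR-146a-5p. miR-125b-5p, which can repress tumour necrosis factor, had 21393, 23022 and 38183 CPM and was highest in animal 3. miR-187-3p, induced by interleukin-10 in monocytes, was also highest in animal 3, with 46.7, 38.7 and 102 CPM. miR-9-5p, which targets NFKB1, had 60.6, 68.0 and 49.3 CPM and did not pass the test (adjusted p 0.0820). miR-147b, with 8, 15 and 2 counts, was too low to be tested.

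**Figure D5:**
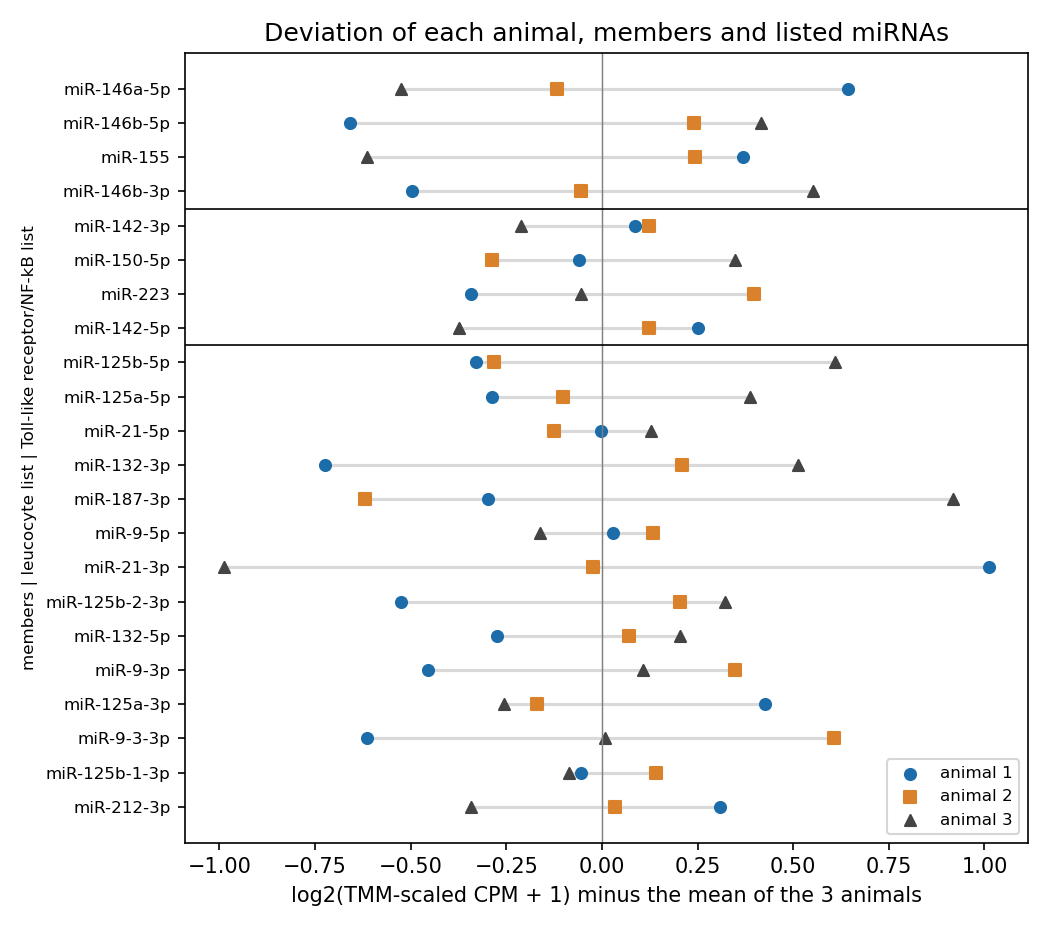
Deviation of each animal from the mean of the 3 animals on log2(TMM-scaled CPM + 1) for the 4 members, the 4 leucocyte names and the 14 tested Toll-like receptor and NF-κB names, with 1 symbol per animal. miR-146a-5p and miR-146b-5p show animal 1 on opposite sides, at 0.64 and -0.66, and miR-155 shows animal 3 at -0.61.

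The profiles nearest to those of the members were sought among the 179 miRNAs averaging 100 CPM or more, by the root mean square difference of mean-centred log2(TMM-scaled CPM + 1). With 3 libraries this measure rests on few values and describes these libraries only. Nearest to miR-146a-5p were miR-450a-5p (0.08), miR-144 (0.13) and let-7a-5p (0.15), which were all highest in animal 1 and lowest in animal 3. Nearest to miR-146b-5p were miR-532-3p (0.01), miR-191-5p (0.03) and miR-132-3p (0.07). Nearest to miR-155 were miR-138-5p (0.03), let-7e-5p (0.15) and let-7c-5p (0.17). miR-138-5p had 6522, 6792 and 2931 counts in animals 1, 2 and 3, and was lowest in animal 3, as miR-155 was. No miRNA was nearest to more than 1 member.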

How the data were processed

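Small RNA libraries from 3 animals, 1 per animal, were analysed. The deposited raw table holds whole-number read counts per mature miRNA. Per the file headers, reads were mapped to M. fascicularis miRNAs with 0 mismatches and miRNAs with at least 15 reads were kept. The smallest sum over the libraries was 15. The aligner, trimming and treatment of reads matching several names are not given in the sources used here. Some names had identical counts in every library, such as miR-199a and miR-199a-5p, and each name was kept. With 1 name of each such pair, the mean share of the members was 0.0810% of listed counts. The second deposited table holds a normalized signal made by the authors with edgeR, per the file headers, which equals the raw count times 0.989, 0.951 and 1.06 in animals 1, 2 and 3. There were 0 further columns of per-sample values. Mature sequences and genomic positions were not used here.

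CPM used the total of listed counts. TMM factors (edgeR 4.0.16, R 4.3.3) were 1.01, 1.05 and 0.940, and DESeq2 1.42.0 size factors were an alternative. Chi-square tests covered miRNAs averaging 10 or more counts, at an adjusted p threshold of 0.05. The test was also run on counts simulated with counting error and set changes in a single library. That run held no other spread between libraries, so it cannot show how the test behaves under such spread. Alternatives were other scalings and count minimums, a pseudocount of 0.5 and each animal left out. Every member was named, with the 3 nearest profiles of each member having a mean count of at least 100. Members, lists and tests were chosen with earlier results of these data known, and the within-library share of miR-146a-5p, the sum of both strands, the related pairs, the counts per 100 leucocyte counts and the listed miRNAs described singly after their values were seen.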

Additional observations from a re-analysis of the deposited data

How the results depend on the processing

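No paired analysis was possible because all libraries belong to 1 group. Of 123 recalculated values, 106 stayed within their limits. Levels and shares were limited by the SD between animals, spans by their counting interval and counts of miRNAs by a factor of 1.5. Adjusted p-values had only to stay below 0.05, and log2 differences only to keep their sign. Some of these outcomes were fixed in advance, since each value reuses the same libraries. With 1 of 3 animals left out, a mean level or share cannot move by the SD between animals. A log2 difference of the same sign in 3 of 3 animals cannot reverse. The number of values within limits is therefore no measure of robustness. The mean log2 difference of miR-146a-5p over miR-146b-5p reversed to -0.62 without animal 1, and ranged from -0.62 to 0.51 with 1 animal left out. The members called by the chi-square test numbered 2 to 4 of 4, with 2 without animal 3, where calls over all miRNAs also decreased, to 237 of 400. Spans over the remaining animals ranged from 1.33 to 2.14 for miR-146a-5p, from 1.13 to 2.22 for miR-146b-5p and from 1.09 to 1.90 for miR-155. A range over fewer animals cannot widen except through rescaling. The lowest span came without animal 3 for miR-155 and without animal 1 for both miR-146 strands. The sum of both strands spanned 1.04 to 1.05 with 1 animal left out, 1.17 by library totals and 1.24 on the authors' signal, whose span of miR-146a-5p was 2.45. The miRNAs spanning more than 2-fold numbered 156 in all, 35 to 124 with 1 animal left out (35 without animal 3, 92 without animal 1), and 82 of 259 at a mean count of at least 100, where fewer miRNAs enter. Depth limits miR-146b-3p in particular, at 17 to 34 counts.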
